A study of Mus musculus with 18 samples.

Results

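The MS4A genes encode small tetraspan membrane proteins related to CD20, the B cell surface protein. The 7 members described here, Ms4a4a, Ms4a4b, Ms4a4c, Ms4a6b, Ms4a6c, Ms4a6d and Ms4a7, were chosen by gene symbol from 22180 genes measured in sorted mouse microglia. Each member had 1 probe set that carried its symbol alone, so no choice between probe sets by brightness was needed. Microglia are the resident macrophages of the brain, and the title of the series concerns their part in myelin formation in the developing brain. There were 18 arrays in 6 groups of 3: corpus callosum and cortex, each sampled on postnatal days 3 (P3) and 7 (P7) and from adult mice.

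All mice were untreated C57Bl/6 animals kept free of specific pathogens, with no transgene named in the labels. The cells came off a Percoll gradient and were sorted for CD45 and CD11b with Gr1-positive cells left out, a gate that microglia share with other macrophages. The labels give neither the number of animals behind an array, nor pooling, nor sex, so p-values measure only the spread between these samples. All values are log2 expression levels after robust multi-array averaging (RMA). A difference of 1 is therefore a factor of 2. A gene counts as called where limma's p, adjusted by Benjamini-Hochberg over all 22180 genes, was under 0.05. Counts of members at an unadjusted p under 0.05 are descriptions, since the share of all genes at that threshold was not counted. Values after ± are standard deviations for levels and standard errors for differences. The genes were chosen with earlier results of these arrays known, so their adjusted p-values are not independent support.

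MS4A proteins sit in the plasma membrane and in endosomes, often next to immune receptors whose signalling they modify. Within the family, Ms4a1 encodes CD20 and Ms4a2 encodes the beta chain of the high-affinity IgE receptor. In humans, variants in the MS4A cluster are associated with the level of soluble TREM2, a microglial receptor shed into the cerebrospinal fluid, and with the risk of Alzheimer's disease. Ms4a7 is widely used in the mouse as a marker of macrophages at the borders of the brain, which are distinct from microglia.

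In the RefSeq gene table the 7 members were neighbours on chromosome 19, in the order Ms4a7, Ms4a4a, Ms4a4c, Ms4a4b, Ms4a6c, Ms4a6b and Ms4a6d. Only Gm8369 and Ms4a4d lay between them. RefSeq promoter windows of 300 bases (250 before and 50 after an annotated start, build GRCm38.p6) were given for 6 members. Ms4a7 had 2 windows, and Ms4a6d had none. The windows of Ms4a7 and Ms4a4a are shown because these genes carried the largest regional differences at P3. Capitals mark a match on either strand to TGANTCA, a loose form of the AP-1 type motif in which N is any base.
Ms4a7, chr19:11334646-11334945, minus strand: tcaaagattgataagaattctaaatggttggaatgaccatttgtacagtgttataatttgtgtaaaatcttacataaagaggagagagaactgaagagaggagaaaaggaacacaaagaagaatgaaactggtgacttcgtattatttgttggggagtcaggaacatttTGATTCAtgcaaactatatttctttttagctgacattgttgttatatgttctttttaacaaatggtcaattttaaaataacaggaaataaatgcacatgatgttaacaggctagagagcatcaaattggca
Ms4a7, chr19:11336097-11336396, minus strand: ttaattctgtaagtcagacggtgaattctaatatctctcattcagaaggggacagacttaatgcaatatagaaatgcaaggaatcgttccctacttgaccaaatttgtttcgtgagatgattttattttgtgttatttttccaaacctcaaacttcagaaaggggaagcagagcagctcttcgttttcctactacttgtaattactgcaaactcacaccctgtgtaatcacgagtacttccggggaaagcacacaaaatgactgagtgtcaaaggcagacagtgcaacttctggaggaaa
Ms4a4a, chr19:11375238-11375537, plus strand: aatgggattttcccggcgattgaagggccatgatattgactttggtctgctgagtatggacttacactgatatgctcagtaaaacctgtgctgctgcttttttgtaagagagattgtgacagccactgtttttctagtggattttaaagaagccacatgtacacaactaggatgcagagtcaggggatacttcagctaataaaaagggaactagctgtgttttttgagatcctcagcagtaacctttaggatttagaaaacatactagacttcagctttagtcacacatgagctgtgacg
The match in Ms4a7 had T at the free base and began at position -81 from the start. Among the other members' windows, Ms4a4b had such a match, with A at the free base, at position 23 after the start. TGANTCA was present in 7.81% of 32851 promoter windows of the mouse genome. GAGGAAG, the form of PU.1 type motif that was searched for, was present in 13.6% of them and CACGTG, an E-box, in 7.15%. Neither of these was found in a member's window, on either strand. The shorter GAGGAA was not searched for, and it can be read in windows of Ms4a7, Ms4a4b and Ms4a4c.

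The next windows are shown in pairs because these pairs had the most identical aligned bases among the members' windows that were matched. Capitals mark runs of at least 15 bases that both windows of a pair share.
Ms4a4b, chr19:11443308-11443607, plus strand: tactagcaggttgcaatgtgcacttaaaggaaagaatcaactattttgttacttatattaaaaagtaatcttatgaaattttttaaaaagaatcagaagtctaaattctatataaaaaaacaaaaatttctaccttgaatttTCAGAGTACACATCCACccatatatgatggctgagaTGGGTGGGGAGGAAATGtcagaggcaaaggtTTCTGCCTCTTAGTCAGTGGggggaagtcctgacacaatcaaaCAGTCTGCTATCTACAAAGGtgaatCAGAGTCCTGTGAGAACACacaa
Ms4a4c, chr19:11407411-11407710, plus strand: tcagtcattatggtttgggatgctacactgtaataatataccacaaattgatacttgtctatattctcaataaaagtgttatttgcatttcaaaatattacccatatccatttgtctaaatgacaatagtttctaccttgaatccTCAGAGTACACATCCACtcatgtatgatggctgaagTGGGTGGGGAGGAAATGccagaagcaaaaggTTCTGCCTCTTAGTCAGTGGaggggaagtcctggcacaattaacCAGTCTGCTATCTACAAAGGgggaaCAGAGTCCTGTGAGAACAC
Ms4a6b, chr19:11518309-11518608, plus strand: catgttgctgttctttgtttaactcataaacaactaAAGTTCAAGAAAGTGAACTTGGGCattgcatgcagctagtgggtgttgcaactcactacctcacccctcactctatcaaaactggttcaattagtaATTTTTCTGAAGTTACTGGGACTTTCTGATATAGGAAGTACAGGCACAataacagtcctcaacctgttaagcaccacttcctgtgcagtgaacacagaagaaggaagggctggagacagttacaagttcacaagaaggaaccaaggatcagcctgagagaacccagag
Ms4a6c, chr19:11469118-11469417, plus strand: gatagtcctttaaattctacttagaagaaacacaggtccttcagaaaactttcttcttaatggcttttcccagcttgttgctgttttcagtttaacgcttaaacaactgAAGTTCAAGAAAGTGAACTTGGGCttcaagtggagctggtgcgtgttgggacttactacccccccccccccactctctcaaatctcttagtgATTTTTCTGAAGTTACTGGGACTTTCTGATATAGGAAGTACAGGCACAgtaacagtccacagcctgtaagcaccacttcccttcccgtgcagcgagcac
Ms4a6b and Ms4a6c were identical at 193 of 234 aligned positions (82.5%) and shared an unbroken run of 48 bases. Ms4a4b and Ms4a4c were identical at 229 of 301 aligned positions (76.1%), with 5 shared runs of at most 20 bases. Promoter likeness says nothing of the probes, and whether a probe set also reads a related transcript was not tested.

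The label of microglia was borne out by its markers. Of 10 microglial genes, 9 were measured, and their mean level lay between 10.3 and 11.4 on every array. P2ry12, a purinergic receptor typical of microglia, was between 11.48 and 12.26. The T cell marker Cd3e stayed between 4.44 and 5.13, below the array medians of 5.58 to 5.74. Of the same T and NK cell list, Nkg7 alone was above the medians on every array (5.90 to 6.69). Of the B cell list, Cd79b (7.15 to 8.31) and Cd22 (6.10 to 7.05) were above the medians on every array. Cd79a, Blk and Fcrla were below them on every array. Mrc1, a mannose receptor of border macrophages, was well above the medians at P3 and P7, at 9.61 to 11.18, and lower in the adult, at 5.56 to 7.24. In such bulk samples, fewer cells of a type and less RNA per cell cannot be told apart.

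One array stood apart for the members. Callosum P3 replicate 3 had the highest value of all 18 arrays for 4 of the 7 members, namely Ms4a4a, Ms4a4b, Ms4a6c and Ms4a6d. It also had the highest mean level of the border macrophage list (7.24), the monocyte list (6.60) and the neutrophil list (6.33), and the lowest of the microglial list (10.3). Fn1, which encodes fibronectin, was above 10 there, against 4.63 to 5.76 on the other arrays. F13a1, of the border macrophage list, is a coagulation factor gene expressed by monocytes and some macrophages. It reached 7.94, against 4.80 to 5.80. Cd163 (5.24), Siglec1 (6.53) and Pf4 (7.61) of that list were also at their highest on this array. Its other genes, Mrc1 (9.65), Folr2 (8.62), Lyve1 (6.56), Cbr2 (6.53), Stab1 (9.84) and Clec10a (3.84), were within the range of the other arrays. Of the neutrophil list, the chemokine receptor gene Cxcr2 was at 9.43 there, against 5.75 to 7.69. S100a9, which encodes a calprotectin subunit, was at 8.44, against 4.61 to 6.92. S100a8, Camp and Ngp of that list were also at their highest on this array. Ly6g (3.83), Retnlg (3.69) and Mmp8 (4.89) were within the range of the other arrays and below the array medians. Apart from Fn1, the measured genes of the monocyte list were within the range of the other arrays. Lyz2 (10.56), S100a4 (7.49), Plac8 (6.14) and Chil3 (5.95) were above the array medians on this array. Ly6c2 (3.78), Ccr2 (5.54), F10 (4.76) and Vcan (5.19) were below them. The members' differences between P3 callosum and another group are given below with and without this array, and the part of other myeloid cells in those results was not tested.

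**Figure D1:**
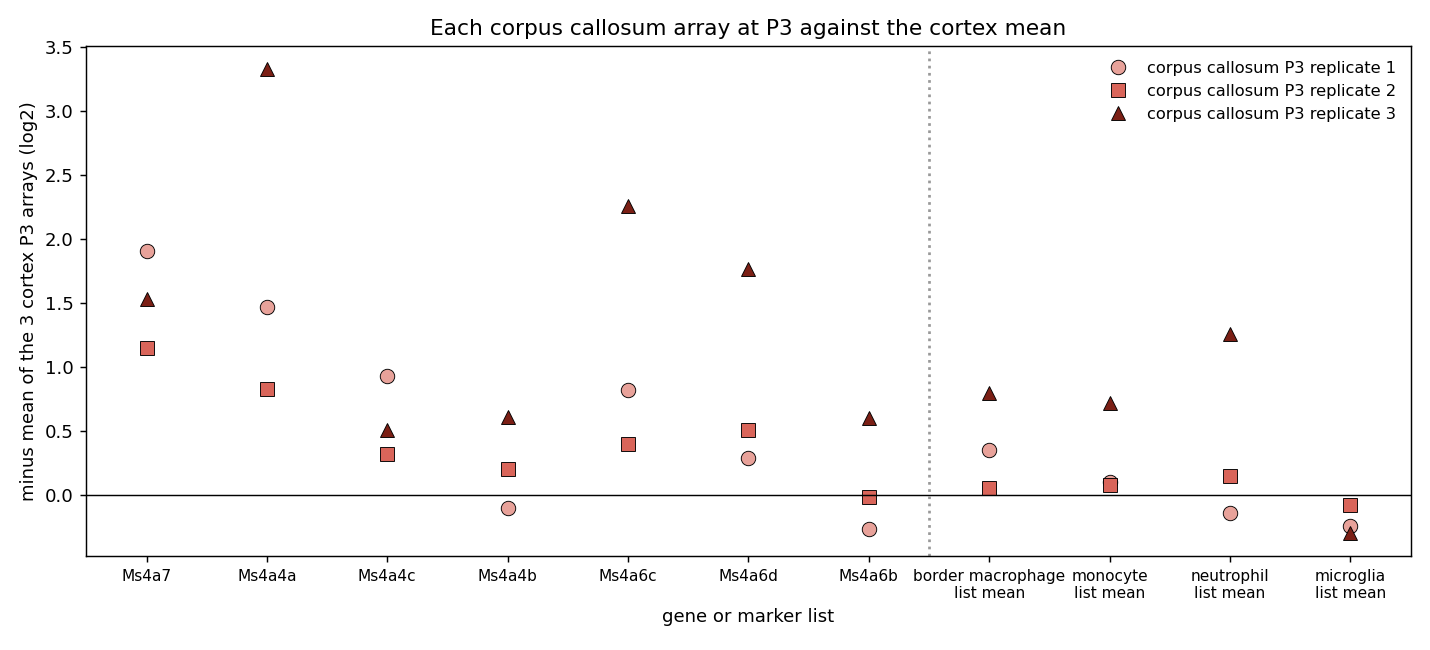
Each symbol is 1 corpus callosum array at P3, and its height is the level minus the mean of the 3 cortex arrays at P3 (log2), for the 7 members (left of the dotted line) and for the mean of 4 marker lists (right). Replicate 3 lies 3.33 above the cortex mean for Ms4a4a, whereas for Ms4a7 and Ms4a4c replicate 1 is the highest.

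Ms4a7 and Ms4a4a were the members that were called higher in callosum than in cortex microglia at P3. They were 2 of 7, where 0.352% of all genes were called higher and 0.153% were called lower. The arrays of both regions did not overlap for 4 of 7 members, against 15.8% of all genes. All 7 differences were above 0, with a median of 0.85, against 0.01 over all genes. Without callosum replicate 3 the same 2 members were called, where 0.41% of all genes were called higher and 0.158% lower. In that fit 6 of 7 differences were above 0, with a median of 0.61, against 0.02 over all genes. The arrays then did not overlap for 4 of 7 members, against 27.9% of all genes.

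Ms4a7 had levels of 7.04, 6.28 and 6.66 in P3 callosum (6.66 ± 0.38, n = 3), against 4.45, 5.93 and 5.02 in P3 cortex (5.13 ± 0.75, n = 3). Every callosum array was above every cortex array, and cortex replicate 2 came closest. The difference was 1.53 ± 0.29, or 2.88-fold (limma adjusted p = 0.0201). Without callosum replicate 3 it was 1.53 ± 0.33 (limma adjusted p = 0.0457). The call was lost without callosum replicate 1 (limma adjusted p = 0.0754), cortex replicate 1 (0.109) or cortex replicate 3 (0.0737), and in a fit of these 6 arrays alone (0.19). It was also lost with the replicate number as a block in the fit.

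Folr2, a folate receptor used to mark border macrophages, was the 1 of 10 genes of that list that was also called higher in P3 callosum, by 1.63 ± 0.22 (limma adjusted p = 0.00187), and by 1.61 ± 0.25 without callosum replicate 3 (limma adjusted p = 0.00772). The list mean was 6.50 to 7.24 in P3 callosum and 6.28 to 6.63 in P3 cortex. Within the list, Stab1 (9.13 to 9.84), Folr2 (8.29 to 8.81) and Pf4 (6.74 to 7.61) exceeded the medians on every P3 callosum array. So did Mrc1 (9.61 to 9.66), Lyve1 (6.04 to 6.56) and Cbr2 (5.97 to 6.53), while Cd163 and Clec10a were below the medians. Unlike Folr2, Mrc1 was lower on every P3 callosum array than on every P3 cortex array (10.26 to 10.45), a difference that was not called. The part of border macrophages in the P3 difference of Ms4a7 was not tested.

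Ms4a4a, which in macrophages associates with the beta-glucan receptor dectin-1, had levels of 5.98, 5.33 and 7.84 in P3 callosum (6.38 ± 1.30, n = 3). In P3 cortex it had levels of 4.65, 4.26 and 4.62 (4.51 ± 0.22, n = 3). The groups did not overlap, but the callosum arrays spread widely and 1 of them was below the array medians. The difference was 1.87 ± 0.38, or 3.66-fold (limma adjusted p = 0.0334). It was 1.14 ± 0.18 without callosum replicate 3 (limma adjusted p = 0.0116). The call was lost without cortex replicate 1, 2 or 3 (limma adjusted p = 0.102, 0.116 and 0.0808), with array weights (0.0666) and in a fit of these 6 arrays alone (0.298).

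Since the cortex levels of Ms4a4a lay below the array medians, the size of its difference is uncertain. The gene of dectin-1 itself, Clec7a, was called higher in callosum at P3 by 1.98 ± 0.33 (limma adjusted p = 0.00834), and by 2.43 ± 0.29 without callosum replicate 3 (limma adjusted p = 0.000911). On callosum replicate 3, the array highest for Ms4a4a, Clec7a was lowest of the 3 callosum arrays, at 7.87 against 9.69 and 8.78.

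Ms4a6c, a gene of the Ms4a6 branch expressed by monocytes and macrophages, had levels of 8.45, 8.03 and 9.89 in P3 callosum, against 7.52, 7.80 and 7.58 in P3 cortex. The regions did not overlap. The difference of 1.16 ± 0.30 was not called (limma adjusted p = 0.099), and without callosum replicate 3 it was 0.61 ± 0.18 (limma adjusted p = 0.143). Without callosum replicate 2 it was 1.54 and was called (limma adjusted p = 0.0176).

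Ms4a6d, a macrophage gene of the same branch, had levels of 7.06, 7.28 and 8.54 in P3 callosum, against 6.57, 7.20 and 6.56 in P3 cortex. Cortex replicate 2 overlapped the callosum arrays. The difference was 0.85 ± 0.26 (limma adjusted p = 0.157), and 0.40 ± 0.17 without callosum replicate 3.

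Ms4a4c, expressed in the mouse by monocytes and activated lymphocytes, had levels of 6.67, 6.06 and 6.25 in P3 callosum, against 5.80, 5.80 and 5.62 in P3 cortex. The groups did not overlap, yet the difference of 0.59 ± 0.19 was not called (limma adjusted p = 0.175). It was 0.63 ± 0.21 without callosum replicate 3.

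The other two members had the smallest regional differences at P3, and their arrays overlapped. Ms4a6b, which is abundant in regulatory T cells in the mouse, had levels of 8.79 to 9.65 in P3 callosum and 8.91 to 9.19 in P3 cortex. Its difference was 0.10 ± 0.18, and -0.15 ± 0.15 without callosum replicate 3. Ms4a4b, a T cell gene in the mouse, was below the lowest array median of 5.58 on all 18 arrays, at 3.72 to 4.73. Its P3 difference was 0.23 ± 0.18, and 0.05 ± 0.18 without callosum replicate 3. The T and NK cell list (10 of 12 genes measured) had means of 4.45 to 4.75 over all arrays.

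**Figure D2:**
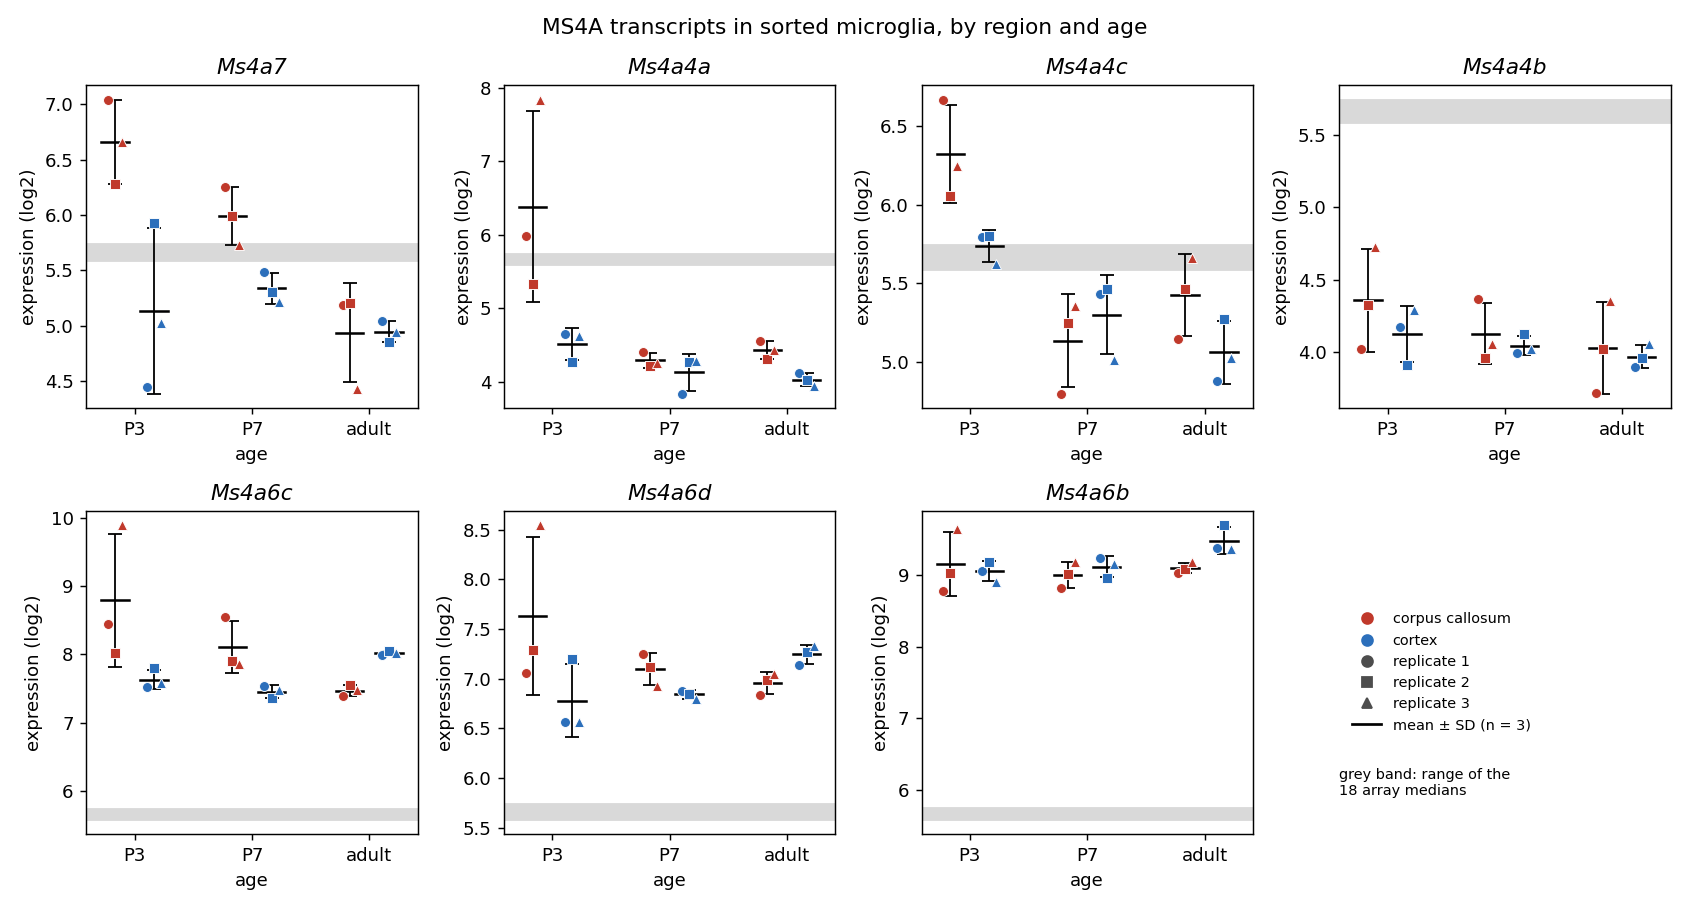
Level (log2) of each member on each array by age, with corpus callosum (red) left of cortex (blue), the symbol shape for the replicate number, and lines for the mean and SD of 3 arrays. The grey band is the range of the array medians, 5.58 to 5.74. Ms4a7, Ms4a4a, Ms4a4c and Ms4a6c separate the regions at P3. The Ms4a6c arrays of callosum lie above those of cortex at P7 and below them in the adult, and Ms4a4b stays under the band.

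At P7 no member was called between the regions (0 of 7 in either direction by limma, 2 of 7 at an unadjusted p under 0.05). Among all genes, 0.446% were called higher in callosum and 0.00451% lower. The arrays of the regions did not overlap for 3 of 7 members, against 16.7% of all genes. These were Ms4a7, Ms4a6c and Ms4a6d, each higher in callosum. The median difference of the members was 0.16, against 0.00 over all genes.

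Ms4a7 had levels of 6.25, 5.99 and 5.73 in P7 callosum (5.99 ± 0.26, n = 3), against 5.49, 5.30 and 5.22 in P7 cortex (5.34 ± 0.14, n = 3). Its difference was 0.65 ± 0.29 (limma adjusted p = 0.653). Ms4a6c had levels of 8.55, 7.91 and 7.87 in P7 callosum (8.11 ± 0.38, n = 3), against 7.54, 7.35 and 7.48 in P7 cortex (7.46 ± 0.09, n = 3). Callosum replicate 1 was the highest P7 array for both genes. On that array the neutrophil list mean was 5.57, against 4.62 and 4.63 on the other P7 callosum arrays, and Folr2 was 9.88, against 8.88 and 8.81. The microglial list mean of 10.4 was the lowest at P7. The border macrophage list mean of 6.95 was the highest at P7, but Mrc1 (10.06) and Cbr2 (5.93) were at their lowest of the P7 arrays. Folr2 was called higher in P7 callosum by 1.95 ± 0.22 (limma adjusted p = 9.05e-05), the 1 of 10 border macrophage genes that was. Mrc1 was lower on every P7 callosum array (10.06 to 10.85) than on every P7 cortex array (10.90 to 11.18), and was not called. The part of neutrophils and border macrophages in the P7 values was not tested.

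The P7 difference of Ms4a6c was 0.65 ± 0.30 (limma adjusted p = 0.709). Ms4a6d had levels of 7.25, 7.12 and 6.92 in P7 callosum, against 6.88, 6.85 and 6.80 in P7 cortex, a difference of 0.26 ± 0.26. Its lowest callosum array was only just above the highest cortex array.

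For the remaining members the P7 regions overlapped. Ms4a4a had levels of 4.21 to 4.41 in P7 callosum and 3.84 to 4.28 in P7 cortex. Ms4a4c had levels of 4.80 to 5.36 in P7 callosum and 5.01 to 5.46 in P7 cortex. Ms4a6b had levels of 8.82 to 9.19 in P7 callosum and 8.96 to 9.25 in P7 cortex. Clec7a, in contrast, was called higher in P7 callosum by 2.83 ± 0.33 (limma adjusted p = 0.000145).

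In the adult no member was called between the regions (0 of 7 by limma, 1 of 7 at an unadjusted p under 0.05). Among all genes, 0.00451% were called higher in callosum and 0% lower. The arrays did not overlap for 4 of 7 members, against 12.8% of all genes. The 3 Ms4a6 genes were lower in callosum on every array, and Ms4a4a was higher on every array. The median difference was -0.01, against 0.01 over all genes.

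Ms4a6c had levels of 7.39, 7.55 and 7.48 in adult callosum (7.47 ± 0.08, n = 3), against 7.99, 8.04 and 8.01 in adult cortex (8.02 ± 0.03, n = 3). The replicates lay close together in both regions. The difference was -0.55 ± 0.30 (limma adjusted p = 0.654), with an error that pools the spread of all 6 groups, widest in P3 callosum (SD 0.98).

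Ms4a6d had levels of 6.83, 6.99 and 7.04 in adult callosum, against 7.14, 7.27 and 7.33 in adult cortex, a difference of -0.29 ± 0.26 (limma adjusted p = 0.81). Ms4a6b had levels of 9.04, 9.09 and 9.18 in adult callosum, against 9.38, 9.70 and 9.37 in adult cortex, a difference of -0.38 ± 0.18 (limma adjusted p = 0.578). In both genes the highest callosum array was below the lowest cortex array.

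Ms4a4a had levels of 4.55, 4.31 and 4.43 in adult callosum, against 4.12, 4.02 and 3.94 in adult cortex, all of them below the array medians. Its difference was 0.40 ± 0.38 (limma adjusted p = 0.819). Ms4a7 had levels of 5.19, 5.20 and 4.43 in adult callosum (4.94 ± 0.44, n = 3), against 5.04, 4.85 and 4.94 in adult cortex (4.95 ± 0.10, n = 3). These overlapped, and the difference of -0.01 ± 0.29 has an error that allows a change in either direction. Ms4a4c had levels of 5.15 to 5.66 in adult callosum and 4.88 to 5.27 in adult cortex, which also overlapped.

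**Figure D3:**
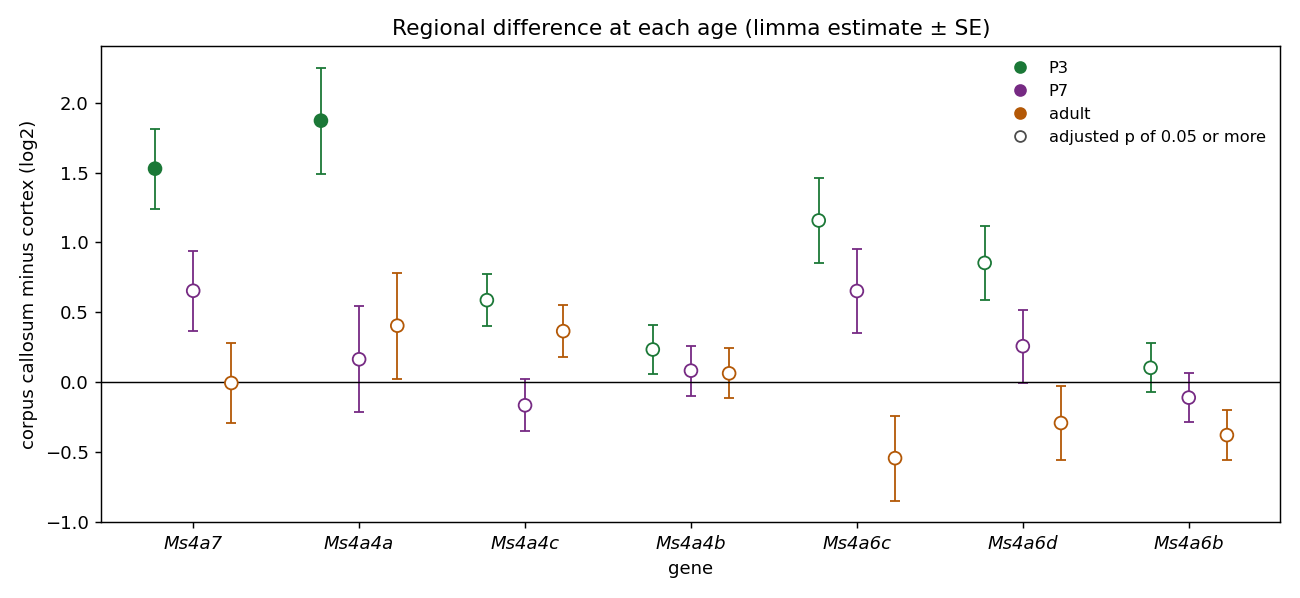
Corpus callosum minus cortex (log2) for each member at P3, P7 and in the adult, with points for the limma estimate and bars for its standard error; filled points were called. At P3 Ms4a7 (1.53) and Ms4a4a (1.87) are filled, and Ms4a6c passes from 1.16 at P3 through 0.65 at P7 to -0.55 in the adult.

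Whether the regional difference itself changed with age was tested directly. No member was called for P7 minus P3, where 0% of all genes were called in either direction (3 of 7 members at an unadjusted p under 0.05 in limma). None was called for adult minus P7, where 0.00451% of genes were called higher and 0.198% lower (1 of 7 unadjusted). None was called for adult minus P3, where 0.0586% were called higher and 0.122% lower (4 of 7 unadjusted). The percentages are at adjusted p, so they are no background for the unadjusted counts. Without callosum P3 replicate 3 no member was called for P7 minus P3, where 0% of all genes were called in either direction. None was called for adult minus P3 either, where 0.018% of all genes were called higher and 0.0406% lower. In these fits 2 of 7 and 4 of 7 members were at an unadjusted p under 0.05. Removal of callosum P3 replicate 3 brought the median change of the members for P7 minus P3 to -0.14, against -0.60 with it. These comparisons share arrays with one another and with the regional comparisons above.

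The largest change in the regional difference from P3 to the adult was that of Ms4a6c, -1.70 ± 0.43 (limma adjusted p = 0.1). It was -1.15 ± 0.24 without callosum P3 replicate 3 (limma adjusted p = 0.066). For Ms4a7 it was -1.54 ± 0.41 (limma adjusted p = 0.111), and -1.53 ± 0.44 without that array. For Ms4a6c the change from P7 to the adult was -1.20 ± 0.43 (limma adjusted p = 0.494). The arrays of Ms4a6c that lay above cortex at P7 and below it in the adult are thus a description of 12 arrays, and the test of the change was not passed.

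Between P7 and the adult, Ms4a7 was the single member called in callosum, where it was lower. That is 1 of 7, against 10.7% of all genes called lower and 6.56% called higher, so the share among the members was near that of all genes. Its arrays did not overlap, at 5.19, 5.20 and 4.43 in the adult against 6.25, 5.99 and 5.73 at P7. The difference was -1.05 ± 0.29, a 2.07-fold lower level (limma adjusted p = 0.0149). The call was lost without callosum P7 replicate 1 (limma adjusted p = 0.0722) or callosum adult replicate 3 (0.0837).

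The border macrophage list moved in the same comparison. Of its 10 genes, 5 (Cbr2, Folr2, Mrc1, Pf4 and Stab1) were called lower in adult than in P7 callosum. The list mean was 5.69 to 5.79 in adult callosum and 6.73 to 6.95 in P7 callosum. In cortex 4 of the 10 were called lower in the adult, with list means of 5.55 to 5.68 in adult cortex and 6.57 to 6.83 in P7 cortex. The part of border macrophages in the change of Ms4a7 was not tested.

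Ms4a6c was also lower on every adult callosum array than on every P7 callosum array, by -0.64 ± 0.30 (limma adjusted p = 0.174). It and Ms4a7 were the 2 of 7 members whose callosum arrays did not overlap between these ages, against 34.6% of all genes. In a fit of the P7 and adult arrays alone both genes were called lower in the adult. That fit leaves out P3 callosum, where Ms4a6c spread most widely (SD 0.98), and the share of all genes called in it was not counted.

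In cortex no member was called between P7 and the adult (0 of 7 by limma, 0 of 7 at an unadjusted p under 0.05). Among all genes, 4.05% were called higher in the adult and 6.15% lower. The arrays did not overlap for 4 of 7 members, against 27.3% of all genes. Ms4a6b, Ms4a6c and Ms4a6d were higher on every adult cortex array, by 0.36 ± 0.18, 0.56 ± 0.30 and 0.41 ± 0.26, and Ms4a7 was lower on every one, by -0.39 ± 0.29.

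Between P3 and P7, Ms4a4a and Ms4a4c were called lower at P7 in callosum. They were 2 of 7, where 0.415% of all genes were called lower and 0.325% higher. The arrays did not overlap for these genes and Ms4a7, 3 of 7 against 18.8% of all genes. All 7 differences were below 0, with a median of -0.67, against 0.00 over all genes. Without callosum P3 replicate 3 the same 2 members were called, where 1.33% of all genes were called lower and 0.956% higher. The arrays then did not overlap for 3 of 7 members, against 35.2% of all genes. Without this array 6 of 7 differences were below 0, with a median of -0.13. The differences without it were -0.13 ± 0.18 for Ms4a6c, -0.08 ± 0.17 for Ms4a6d, -0.05 ± 0.18 for Ms4a4b, 0.10 ± 0.15 for Ms4a6b and -0.67 ± 0.33 for Ms4a7. The sample descriptions of P3 open with another prefix than the later ages have, so age and sample set cannot be told apart in this comparison.

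Ms4a4a in callosum had levels of 4.41, 4.21 and 4.25 at P7, against 5.98, 5.33 and 7.84 at P3. The difference was -2.09 ± 0.38, a 4.27-fold lower level (limma adjusted p = 0.0178). It was -1.37 ± 0.18 without callosum P3 replicate 3 (limma adjusted p = 0.00118). The call was lost without callosum P7 replicate 2 (limma adjusted p = 0.076) or replicate 3 (0.0794), and in a fit of these 6 arrays alone (0.213).

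Ms4a4c in callosum had levels of 4.80, 5.25 and 5.36 at P7, against 6.67, 6.06 and 6.25 at P3. The highest P7 array lay below the lowest P3 array. The difference was -1.19 ± 0.19, a 2.28-fold lower level (limma adjusted p = 0.0106), and -1.23 ± 0.21 without callosum P3 replicate 3 (limma adjusted p = 0.00659). Unlike that of Ms4a4a, this call was kept whichever array of the 6 was left out, with a limma adjusted p of at most 0.0492. It was lost in a fit of these 6 arrays alone (limma adjusted p = 0.123). The monocyte list (9 of 10 genes measured) had no gene called in either direction, with means of 5.90 to 6.02 in P7 callosum and 5.96 to 6.60 in P3 callosum.

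In cortex no member was called between P3 and P7 (0 of 7 by limma, 1 of 7 at an unadjusted p under 0.05), where 0.28% of all genes were called higher at P7 and 0.604% lower. The arrays of 1 member did not overlap, against 21.3% of all genes. This was Ms4a4c, with 5.43, 5.46 and 5.01 at P7 against 5.80, 5.80 and 5.62 at P3, a difference of -0.44 ± 0.19 (limma adjusted p = 0.321).

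P3 callosum was the highest of the 6 groups for 6 of the 7 members, all except Ms4a6b, whose highest mean was that of adult cortex (9.49 ± 0.19, n = 3). This is a description with no test. It did not hold for Ms4a6d without callosum P3 replicate 3, where the P3 callosum arrays were at 7.06 and 7.28 and adult cortex averaged 7.25. With all arrays, the order of the groups below the highest differed by member. For Ms4a4a and Ms4a4c only P3 callosum was clear of the next group, and the other 5 groups overlapped their neighbours. For Ms4a7, P3 callosum was clear of P7 callosum and P7 callosum of P7 cortex, and each of the 4 lowest groups overlapped the next, although P7 cortex was clear of both adult groups. For Ms4a6c adult cortex was clear of P3 cortex below it, and for Ms4a6d, Ms4a6b and Ms4a4b each group overlapped the next.

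The remaining 13 Ms4a genes of the array varied less between the groups, a comparison given as a description only. Their group means spanned 0.11 to 0.66 per gene, with a median of 0.35, against 0.39 to 2.36 with a median of 1.26 for the 7 members. All of the 13 except Ms4a15 (6.00) averaged below the array medians. So did the members Ms4a4b, Ms4a4a, Ms4a4c and Ms4a7, which spanned 0.39, 2.36, 1.26 and 1.72. The part of level in these spans was not tested. The members' spans include callosum P3 replicate 3, and the members were chosen with earlier results known. Ms4a1 (CD20), Ms4a2 and Ms4a3, genes of B cells, of mast cells and basophils, and of myeloid progenitors, were below the array medians on all arrays. One of the 13 was called in one comparison: Ms4a19 averaged 3.34 ± 0.28 in adult callosum and 2.87 ± 0.12 in P7 callosum (SD, n = 3 each), a difference of 0.47 ± 0.15 (limma adjusted p = 0.0331) at levels far below the medians. Ms4a4d, the family gene that lies among the members, had group means spanning 0.51.

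**Figure D4:**
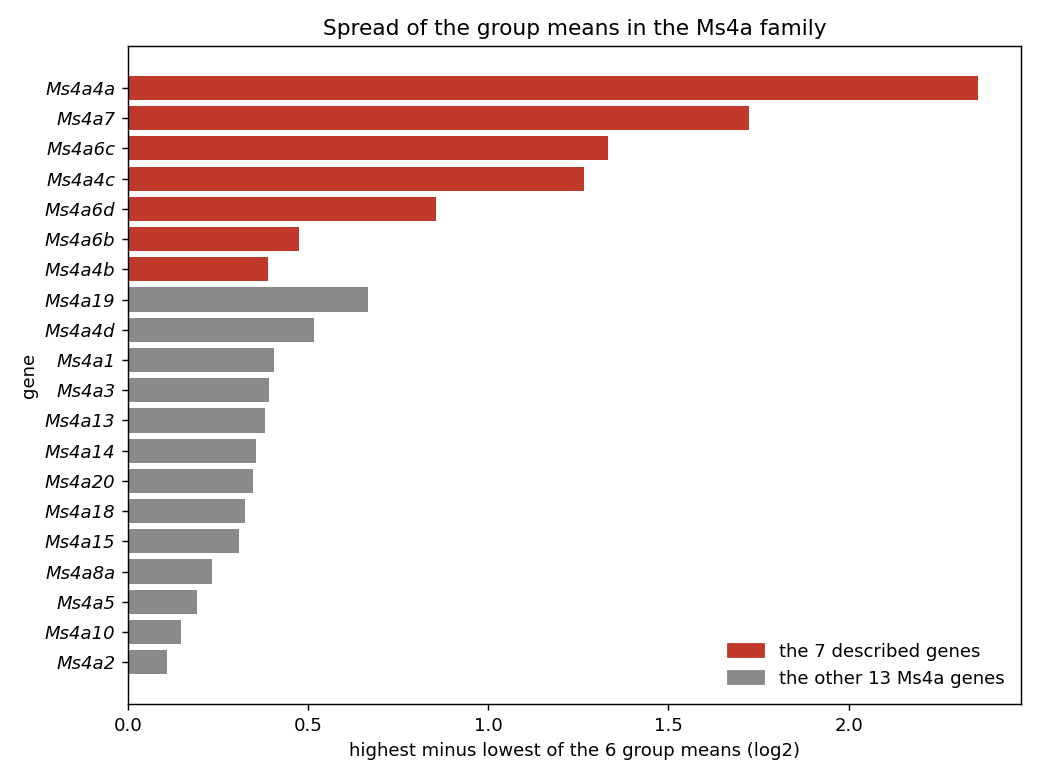
Highest minus lowest of the 6 group means (log2, bars from 0) for the 7 described genes (red) and the other 13 Ms4a genes (grey). Ms4a4a spans 2.36 and Ms4a4b 0.39, and the widest of the grey bars, Ms4a19, spans 0.66.

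Among more distant relatives, Tmem176b, an intracellular membrane protein of antigen-presenting cells, was called higher in adult than in P7 callosum by 0.82 ± 0.20 (limma adjusted p = 0.00709). Its relative Tmem176a was called in no comparison. Of the receptors with which MS4A proteins are associated, Trem2, its adaptor Tyrobp and the Fc receptor gene Fcgr3 were called in no comparison. Trem2 group means lay between 9.67 and 9.87. Fcer1g, the common gamma chain of Fc receptors, was called lower in adult than in P7 callosum by -0.30 ± 0.10 (limma adjusted p = 0.0451). Clec7a was called lower there by -1.98 ± 0.33 (limma adjusted p = 0.000276).

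Within the family, Ms4a6c and Ms4a6d were the most alike over the 18 arrays (Pearson r = 0.90), and r was 0.87 for their deviations from the group means. Ms4a4a and Ms4a6c followed (r = 0.80, deviations 0.86). Ms4a7 and Ms4a4a, the pair called at P3, had r = 0.62 over the arrays and -0.03 for the deviations. These arrays share regions, ages and callosum P3 replicate 3, so the values are descriptions.

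The genes most like each member over the same 18 arrays differed from member to member. For Ms4a7 they were Coa6 (r = 0.89), a cytochrome oxidase assembly factor, Atp6v1b2 (0.87), a subunit of the vacuolar proton pump, and Mcoln3 (0.87), an endolysosomal cation channel. For Ms4a4a they were Hgf (0.92), the hepatocyte growth factor, Gpt2 (0.91), a mitochondrial transaminase, and Sik1 (0.90), a salt-inducible kinase. For Ms4a6c they were the glucose transporter gene Slc2a1 (0.93), the lipid droplet gene Hilpda (0.90) and C9orf72 (0.90). Ms4a6d came closest to Ms4a6c itself, then to Plet1 (0.86) and C9orf72 (0.86).

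For Ms4a4c the nearest genes were Nipa2 (r = 0.86), Zfp971 (0.84) and Inafm1 (0.84). For Ms4a6b they were Foxk1 (0.86), Kdm6b (0.82) and Rhoq (0.81). For Ms4a4b, which stayed below the array medians, they were Tmem104 (0.86), Man2b2 (0.84) and Tmem268 (0.84), with no more weight than values of that level allow. The nearest genes were picked as the highest of all genes, so high values of r arise by selection.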

How the data were processed

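RNA of sorted microglia was amplified, biotin-labelled and hybridised to Affymetrix gene arrays, per the labels' protocols. The deposited log2 values, 1 per probe set and array, were made by the authors with RMA, per the submitters' processing notes; the sources used here give neither its version and settings nor the base of the logarithm. Base 2 was taken because values ran from 0.87 to 13.8. RMA compresses large differences and hides changes of total RNA, and signal was not told apart from background.

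Of 41345 probe sets, 23521 had 1 gene symbol in GEO's platform annotation, 1814 had several and 16010 had none. The brightest probe set per symbol gave 22180 genes, and all 20 Ms4a symbols matched the RefSeq table. All 18 arrays entered 1 linear model with a mean per group (limma 3.58.1, R 4.3.3, lmFit, contrasts.fit and eBayes, 12 residual degrees of freedom). Tests were two-sided, Benjamini-Hochberg adjusted over all genes of a comparison, and the procedure was tested on simulated data. Only 3 arrays per group limit the precision. Named were the 7 members, other Ms4a genes that were called, the Tmem176 relatives and 5 partner genes. Also named were called or defining marker genes with others of their lists. Per member the 3 genes with the highest r were named, leaving out clone and locus names. Members and lists were chosen with earlier results of these data known. Sequences came from RefSeq (GRCm38.p6) and were compared by local alignment in Biopython 1.88. Alternatives covered normalization, filtering, probe set choice, the fit, array weights, a replicate block and leaving out arrays.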

Additional observations from a re-analysis of the deposited data

How the results depend on the processing

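Over the alternatives, 1011 of 1066 comparisons of a member's result with a setting kept direction and side of the threshold, most of them for results that were not called. Each of the 5 called results was lost under at least 1 setting, and 41 of 57 settings over them kept the call. Renewed quantile normalization and eBayes with trend left the number of members called as it was in every comparison; averaging the probe sets of a gene cannot change a member, since each has 1. For callosum against cortex at P3 (2 called), 1 was called with array weights, 1 with genes above the median level only (3 members tested), 0 with these 6 arrays alone in the fit and 0 to 3 with an array left out. For adult against P7 in callosum (1 called) it was 0 with the filter, 2 with the compared groups alone, 2 with P7 and adult arrays alone and 0 to 1 with an array left out. In cortex (0 called) it was 1 with the compared groups alone, 1 with array weights and 2 with P7 and adult arrays alone. For P7 against P3 in callosum (2 called) it was 0 with the filter, 0 with the compared groups alone and 1 to 2 with an array left out. For the regional difference in the adult against P3 (0 called) it was 1 with the filter and 0 to 1 with an array left out. A filter leaves 3 members to test and the compared groups alone leave fewer arrays. Otherwise the cause was not tested. Except without callosum P3 replicate 3, the share of all genes called under these settings was not counted.

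No pairing was taken from the replicate numbers: same-numbered samples of the regions had deviations with r between 0.02 and 0.30, over 0.1 in 4 of 9 pairs, although 8 of 9 callosum arrays correlated best with their own number. With the replicate block, 1 member (Ms4a4a) was called between the regions at P3, and Ms4a7 had a limma adjusted p of 0.0551. The block left the number of members called in the other 9 comparisons as it was.

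Signs turned in 17 of 70 member results, none of them called and none larger than 0.51. With renewed quantile normalization, Ms4a4b in the adult regional comparison was -0.021 and Ms4a6b for P7 minus P3 in cortex was -0.027. With array weights, Ms4a7 in the adult regional comparison was 0.040 and Ms4a4b for the regional difference in the adult minus P7 was 0.040. Without both adult replicate 1 arrays, a setting chosen after seeing the data, that regional change of Ms4a4b was 0.10 while its adult minus P7 difference in callosum was 0.060. With an array left out, these results ranged across 0. Between the regions at P3 Ms4a6b ran from -0.15 to 0.29. Between the regions at P7 Ms4a4b ran from -0.038 to 0.17, Ms4a4c from -0.31 to 0.0018. Between the regions in the adult Ms4a4b ran from -0.10 to 0.22, Ms4a7 from -0.14 to 0.25. For adult minus P7 in callosum Ms4a4b ran from -0.26 to 0.060, Ms4a6b from -0.00015 to 0.18. For P7 minus P3 in callosum Ms4a6b ran from -0.34 to 0.10. For P7 minus P3 in cortex Ms4a4b ran from -0.19 to 0.0031, Ms4a6b from -0.0090 to 0.15, Ms4a6d from -0.044 to 0.28, Ms4a7 from -0.14 to 0.60. For the regional difference at P7 minus P3 Ms4a4b ran from -0.32 to 0.034, Ms4a6b from -0.40 to 0.034, Ms4a6c from -0.89 to 0.045. For the regional difference in adult minus P7 Ms4a4b ran from -0.18 to 0.14. For the regional difference in adult minus P3 Ms4a4b ran from -0.34 to 0.015. Levels below the array medians, as for Ms4a4b and most values of Ms4a4a, limit what can be said of size.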
